A study of Mus musculus with 4 samples.

Results

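The transcripts described here are those of MHC class I molecules: 9 heavy chains (H2-K1, H2-D1, H2-Q4, H2-Q6, H2-Q7, H2-T22, H2-T23, H2-M3 and the class I-like Cd1d1) and their light chain, B2m. They were chosen by gene symbol, and all 10 were found among the 36464 gene IDs of the deposited files. All 10 were also among the 12484 genes that reached at least 1 RPKM (read counts scaled by the exon length of the gene and by the total of the library) in at least 2 libraries. The libraries were made from CD8+ T cells enriched from percutaneous tumour grafts in wild type C57BL/6 male mice, collected on day 19 after 2 weeks of intraperitoneal injection of IgG or of anti-SIGLEC15. SIGLEC15 is a sialic acid-binding lectin, and the study asked how its blockade changes CD8+ T cells in the tumour. There were 6 mice per treatment and 3 cell pellets were mixed per library, giving 2 libraries per treatment, so that SDs and p-values reflect variation among pools rather than among animals. The labels used here do not name the tumour line or the ages of the mice.

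A class I molecule is a heavy chain held by B2m, and on the cell surface it shows a short peptide to the T cell receptor of CD8+ T cells. The classical chains H2-K1 and H2-D1 are made by nearly all nucleated cells, T cells among them, and rise with interferon. The non-classical chains have narrower tasks, such as holding a leader peptide for natural killer cell receptors, formylated bacterial peptides or, in the case of Cd1d1, lipids. C57BL/6 mice carry the H-2b haplotype of these genes, which is also that of the mouse reference genome.

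Class I promoters carry a shared upstream block that interferon and NF-kappa B factors use. Windows of 95 bases are shown from the promoters of H2-K1, H2-Q4, H2-Q6 and H2-Q7, the chains whose 4 libraries separated by treatment, and from H2-M3 and B2m, which did not separate. The windows of H2-D1, H2-T22 and H2-T23, which did not separate either, overlap annotated untranslated regions and are not shown. The sequences are those of RefSeq for GRCm38.p6. Capitals mark matches to the kappa B core GGGATTCC, to TTTCACTT (an interferon regulatory factor type element, in the H2 genes), to the interferon element core (in B2m) and to TGATGAC (a cyclic AMP response element type sequence).
H2-K1, chr17:34000375-34000469, minus strand: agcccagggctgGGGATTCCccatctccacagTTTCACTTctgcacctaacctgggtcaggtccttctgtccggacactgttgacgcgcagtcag
H2-Q4, chr17:35379432-35379526, plus strand: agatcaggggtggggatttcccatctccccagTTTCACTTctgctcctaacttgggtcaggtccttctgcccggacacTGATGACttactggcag
H2-Q6, chr17:35424666-35424760, plus strand: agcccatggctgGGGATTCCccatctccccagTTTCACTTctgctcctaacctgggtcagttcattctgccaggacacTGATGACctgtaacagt
H2-Q7, chr17:35439010-35439104, plus strand: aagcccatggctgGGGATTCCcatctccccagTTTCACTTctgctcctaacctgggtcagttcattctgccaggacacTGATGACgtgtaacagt
H2-M3, chr17:37270101-37270195, plus strand: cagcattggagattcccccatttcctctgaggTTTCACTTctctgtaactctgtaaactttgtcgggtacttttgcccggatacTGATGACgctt
B2m, chr2:122147516-122147610, plus strand: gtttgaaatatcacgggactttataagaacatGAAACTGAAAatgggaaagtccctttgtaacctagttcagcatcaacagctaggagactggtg

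H2-K1, H2-Q6 and H2-Q7 held GGGATTCC and TTTCACTT side by side in these windows. H2-Q4 and H2-M3 held TTTCACTT without GGGATTCC, and B2m held neither of the pair. Only these exact letters were searched, so a variant of the kappa B core would not be counted. The H2-D1 window, which is not shown, held GGGATTCC, TTTCACTT and TGATGAC, and H2-D1 did not separate by treatment. A link between these elements and the treatment difference was not tested. Ungapped against the H2-K1 window, 89 of 95 bases were identical in H2-D1, 81 of 95 in H2-Q4 and 79 of 95 in H2-Q6. The H2-Q7 window has 70 of 95 identical bases when read without gaps.

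The promoter table had an entry for 9 of the 10 genes, all except Cd1d1, each covering 250 bases before and 50 after the start. On both strands of these whole entries, GGGATTCC occurred in 4 of 9 (H2-K1, H2-D1, H2-Q6 and H2-Q7), against 1.07% of 32544 distinct promoters of the same length. TTTCACTT occurred in 7 of 9 against 1.61%, and TGATGAC in 6 of 9 against 3.23%. These last elements were looked for after the promoters had been seen. The interferon element core, a pair of GAAA blocks with any NN between them, occurred in 3 of 9 (H2-T22, H2-T23 and B2m) against 3.45%, and in H2-T22 it overlapped the TTTCACTT match. CCAAT occurred in 9 of 9 against 37.36%, and TATAAA in 4 of 9 (H2-K1, H2-D1, H2-Q4 and B2m) against 13.57%. The H2 promoters resemble each other in sequence, and a match is a description of letters, not a bound site.

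Counted reads ranged from 14854802 to 16026197 per library. Over the 12484 genes, log2(RPKM + 1) correlated with r = 0.8838 between the IgG libraries and r = 0.9719 between the anti-SIGLEC15 libraries, a correlation across genes. IgG replicate 1 stood apart. Its T cell identity list of 16 genes had a geometric mean of 39.6 RPKM, against 108 to 116 RPKM in the other libraries, and its list of 10 pan-leukocyte genes 52.0 RPKM against 123 to 146 RPKM. Cd8a, the defining coreceptor chain of these cells, measured 115 RPKM there and 290 to 351 RPKM elsewhere. Its summed RPKM over 14 hepatocyte and hepatoma genes was 5916, against 1202 to 2550, and over 11 neutrophil genes 853, against 70.0 to 371. Summed markers of macrophages were between 36.4 and 50.4 RPKM, of dendritic cells between 30.9 and 64.6, and of natural killer cells between 73.9 and 123. Those of B cells, endothelium and fibroblasts were at or under 3.55 RPKM. Cd68 (24.5 to 31.0) made most of the macrophage sum, and Ccr7 (27.4 to 56.5) most of the dendritic cell sum. Natural killer markers differed in direction. Tyrobp measured 58.2 and 5.32 RPKM with IgG and 18.7 and 41.3 RPKM with anti-SIGLEC15. Eomes measured 5.11 and 22.6 RPKM, and 21.8 and 18.2 RPKM. These sums therefore do not measure the amount of a cell type. Red cell markers summed to 691 and 1929 RPKM with IgG and 113 and 19.9 RPKM with anti-SIGLEC15. No marker of these lists was at 0 in all 4 libraries. Mitochondrially encoded genes took 8.91% to 18.37% of reads. The part of these differences in the class I values was not tested. A ratio within a library, as given below, removes scaling between libraries but not differences in cell mixture. In a bulk library fewer cells of a type and less RNA per cell cannot be told apart.

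In what follows, paired values within a treatment are given for replicate 1 and then replicate 2, in RPKM. B2m, the light chain of every molecule described here (ENSMUSG00000060802, chromosome 2, 122147686 to 122153083, GRCm38), measured 3231 and 4752 with IgG and 4371 and 4650 with anti-SIGLEC15. The treatments overlapped, with the lowest and the highest value both among the IgG libraries. The means were 3991 ± 1076 (SD, n = 2) with IgG and 4511 ± 197 (SD, n = 2) with anti-SIGLEC15.

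The classical heavy chains lie on chromosome 17, where all of the H2 genes are. H2-D1 (ENSMUSG00000073411, 35262730 to 35267499) measured 669 and 872 with IgG and 863 and 1016 with anti-SIGLEC15, so that IgG replicate 2 lay above anti-SIGLEC15 replicate 1. H2-K1 (ENSMUSG00000061232, 33996017 to 34000347, minus strand) measured 248 and 720 with IgG and 726 and 864 with anti-SIGLEC15. Both anti-SIGLEC15 values of H2-K1 were above both IgG values, but the nearest pair differed by less than 1%, while IgG replicate 1 was lower than IgG replicate 2 by a factor of 2.90. For H2-D1 the same factor between the IgG libraries was 1.30.

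The Q region genes encode the Qa molecules, among them Qa-2, the product of the H2-Q6 to H2-Q9 group. H2-Q6 (ENSMUSG00000073409, 35424850 to 35430055) measured 118 and 378 with IgG and 459 and 577 with anti-SIGLEC15. H2-Q7 (ENSMUSG00000060550, 35439155 to 35443773) measured 46.3 and 147 with IgG and 160 and 174 with anti-SIGLEC15. H2-Q4 (ENSMUSG00000035929, 35379617 to 35385290) measured 94.8 and 153 with IgG and 197 and 246 with anti-SIGLEC15. In all 3 genes both anti-SIGLEC15 libraries were above both IgG libraries, and IgG replicate 1 was the lowest library. H2-Q6 was 3.21 times as high in IgG replicate 2 as in IgG replicate 1, a larger gap than the 2.09-fold between its treatment means.

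The T and M region genes lie beyond the Q region on chromosome 17. H2-T23, which encodes the Qa-1 molecule read by the CD94 and NKG2 receptors, measured 73.7 and 96.9 with IgG and 94.7 and 101 with anti-SIGLEC15 (ENSMUSG00000067212, 36029773 to 36032855, minus strand). H2-T22, a ligand of some gamma delta T cell receptors, measured 48.1 and 80.8 with IgG and 73.1 and 81.5 with anti-SIGLEC15 (ENSMUSG00000056116, 36037128 to 36042747, minus strand). In both genes IgG replicate 2 lay within the range of the anti-SIGLEC15 libraries, and only IgG replicate 1 was lower. H2-M3, which holds N-formylated peptides, measured 11.02 and 22.95 with IgG and 21.1 and 28.1 with anti-SIGLEC15 (ENSMUSG00000016206, 37270220 to 37274484). Its IgG replicate 2 also lay between the anti-SIGLEC15 libraries.

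Cd1d1, the chain that shows lipids to natural killer T cells, was the least abundant of the set (ENSMUSG00000028076, chromosome 3, 86995834 to 86999441, minus strand). It measured 3.08 and 6.40 with IgG and 6.67 and 5.74 with anti-SIGLEC15. From 127 to 269 reads, the 95% exact Poisson intervals were 2.57 to 3.67 RPKM in IgG replicate 1, 5.64 to 7.23 in IgG replicate 2, 5.90 to 7.51 in anti-SIGLEC15 replicate 1 and 5.002 to 6.55 in anti-SIGLEC15 replicate 2. These intervals cover counting error only. The last 3 intervals overlapped and IgG replicate 1 lay under them. For the other genes counting error was smaller, with 254 to 600 reads for H2-M3 and 44525 to 63397 for B2m.

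**Figure D1:**
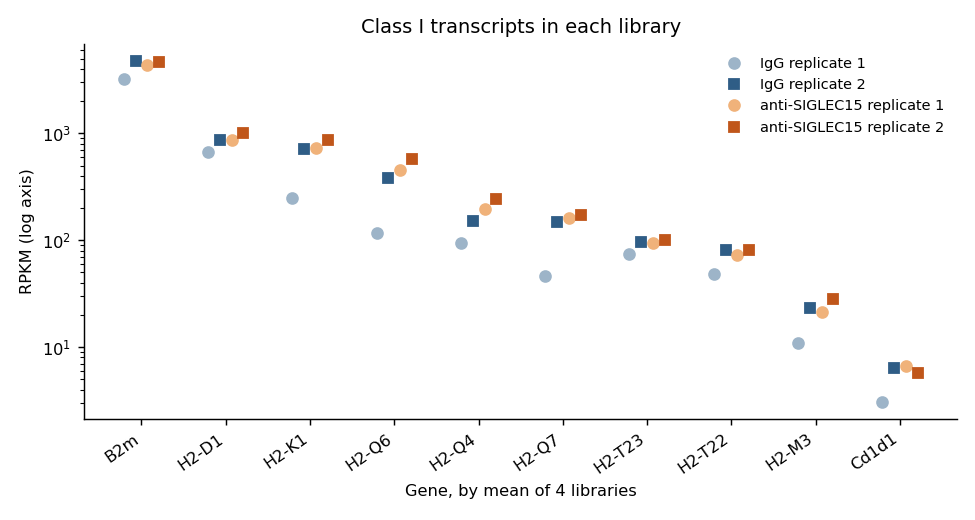
RPKM on a log axis (vertical) of the 10 class I genes (horizontal, ordered by the mean of 4 libraries), with 1 point per library. IgG replicate 1 (pale blue circles) is the lowest point for 10 of 10 genes, and B2m lies above every heavy chain.

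On the RPKM scale the order from highest to lowest was B2m, H2-D1, H2-K1, H2-Q6, H2-Q4, H2-Q7, H2-T23, H2-T22, H2-M3 and Cd1d1. Every neighbour pair kept its order in 4 of 4 libraries except H2-Q7 over H2-T23, which held in 3 of 4. The ranges over libraries were apart for B2m over H2-D1, H2-T22 over H2-M3 and H2-M3 over Cd1d1, and overlapped for the other neighbours. The order of close neighbours depends on the length used. The deposited values divide reads by all annotated exon bases of a gene, 2938 for H2-K1 and 4265 for H2-Q7, while their longest coding transcripts have 1619 and 1523 bases. Divided by the longest coding transcript, a choice made after the values were seen, H2-K1 had a mean of 1161 RPKM and H2-D1 of 1049 RPKM, and the pair changed places in 3 of 4 libraries. H2-Q7 then had 369 RPKM, above H2-Q4 at 250 RPKM and close to H2-Q6 at 383 RPKM, so that H2-Q4 and H2-Q7 also changed places.

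Reads can be shared among these genes, because parts of their transcripts are identical. Of the distinct windows of 100 bases in its annotated transcripts, H2-Q7 had 12% that also occur in another gene, H2-Q6 10.8%, Cd1d1 10.5%, H2-T22 8.9%, H2-D1 3.6%, H2-T23 3.2%, H2-Q4 2.2% and H2-K1 1.0%. For H2-M3 and B2m the share was 0.0%. H2-Q6 and H2-Q7 had 166 such windows in common, H2-Q7 and H2-Q10 270, H2-T22 and H2-T10 261, and Cd1d1 and Cd1d2 269. With windows of 50 bases the shares were 34.5% for H2-T22, 32% for H2-Q6, 26.4% for H2-Q7, 21.8% for H2-Q4, 19.1% for Cd1d1 and 9.6% for H2-K1. How the authors assigned such reads is not given here, so the values of H2-Q4, H2-Q6, H2-Q7, H2-T22 and Cd1d1 are uncertain by an unknown amount. Summed, H2-Q6 and H2-Q7 measured 164 and 525 RPKM with IgG and 618 and 751 RPKM with anti-SIGLEC15, again with both anti-SIGLEC15 libraries higher. H2-Q4 overlaps the antisense gene Gm11131 over 19.1% of its exon bases, and without stated strand reads from the overlap cannot be told apart. Gm11131 itself measured 0.780 and 2.99 RPKM with IgG and 3.90 and 3.21 RPKM with anti-SIGLEC15, far under H2-Q4. H2-T22 overlaps the antisense gene A930015D03Rik over 29.4% of its exon bases, and that gene is listed at 0 in all 4 libraries.

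IgG replicate 1 had the lowest value for 10 of 10 genes, and anti-SIGLEC15 replicate 2 the highest for 8 of 10. Among all 12484 genes, 43.7% were lowest in IgG replicate 1. The gap between the IgG libraries was not the same for all genes. H2-Q6, H2-Q7 and H2-K1 were 2.90 to 3.21 times higher in IgG replicate 2, H2-M3 and Cd1d1 2.07 to 2.08 times, and H2-T22, H2-Q4, B2m, H2-T23 and H2-D1 1.30 to 1.68 times. The T cell identity list measured 39.6 and 116 RPKM in the same libraries.

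**Figure D2:**
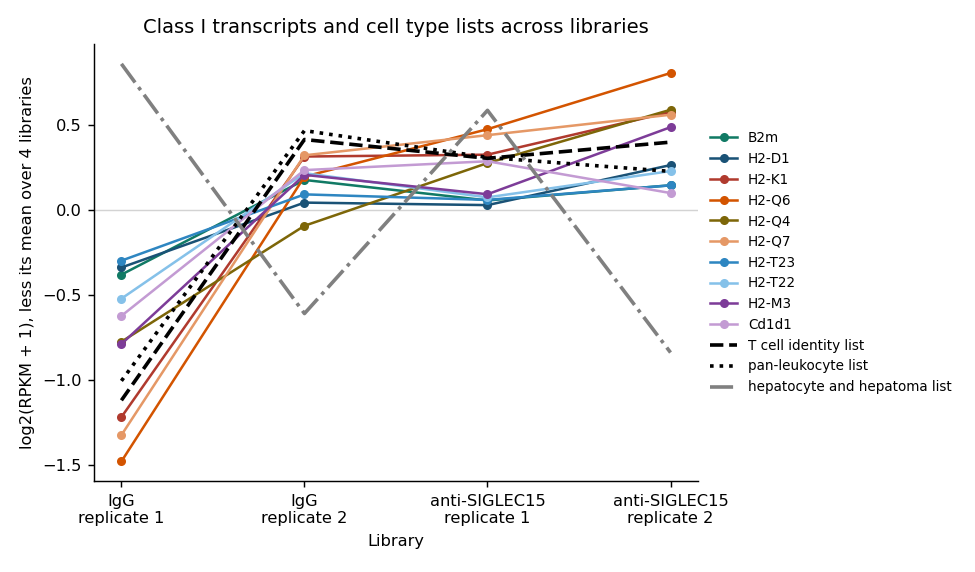
log2(RPKM + 1) of each class I gene less its own mean over the 4 libraries (vertical), by library (horizontal), with the T cell, pan-leukocyte and hepatocyte lists as broken lines; the lines only join values of a gene or list. IgG replicate 1 lies under 0 for all 10 genes and for the T cell list, while the hepatocyte list is highest there.

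Ratios within a library do not depend on how libraries are scaled. H2-K1 over the geometric mean of the T cell identity list was 6.28 and 6.19 with IgG and 6.73 and 7.499 with anti-SIGLEC15, so that H2-K1 kept pace with the T cell genes in IgG replicate 1 as well. B2m over the same list was 81.6 and 40.8 with IgG and 40.6 and 40.4 with anti-SIGLEC15. Thus 3 libraries had nearly the same B2m level per T cell transcript, and IgG replicate 1 had a higher one. H2-D1 over the list was 16.9 in IgG replicate 1 and between 7.49 and 8.82 in the other libraries, and H2-T23 was 1.86 against 0.832 to 0.879, the same pattern as B2m. H2-Q6 over the list was 2.97 and 3.25 with IgG and 4.26 and 5.01 with anti-SIGLEC15, with both anti-SIGLEC15 libraries above both IgG libraries, and H2-Q7 was 1.17 and 1.26 against 1.48 and 1.51. H2-Q4 over the list was 2.40 and 1.31 with IgG and 1.83 and 2.13 with anti-SIGLEC15, an overlap with the highest value in IgG replicate 1.

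The make-up of the heavy chain pool, in shares of RPKM as deposited, differed in IgG replicate 1. H2-D1 was 51.0% of the summed heavy chain RPKM there and 32.9% to 35.2% elsewhere. H2-K1 was 18.9% there and 27.9% to 29.1% elsewhere. The ratio of H2-D1 to H2-K1, singled out after its values were seen, was 2.69 and 1.21 with IgG and 1.19 and 1.18 with anti-SIGLEC15, so 3 libraries lay within 3% of each other and 1 did not. By longest coding transcript the ratio was 1.82 and 0.818 with IgG and 0.804 and 0.795 with anti-SIGLEC15, under 1 in the same 3 libraries. H2-Q6 was 8.97% and 15.3% of the pool with IgG and 17.6% and 18.7% with anti-SIGLEC15. H2-D1 against B2m moved little, from 18.4% to 21.9% over the 4 libraries, and H2-T23 against B2m stayed between 2.04% and 2.28%.

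Summed, the heavy chains were higher relative to the light chain in the anti-SIGLEC15 libraries. The summed RPKM of the 9 heavy chains over that of B2m was 0.406 and 0.521 with IgG and 0.595 and 0.665 with anti-SIGLEC15, with means of 0.464 ± 0.0813 (SD, n = 2) and 0.630 ± 0.0495 (SD, n = 2). The difference was 0.45 on the log2 scale and the groups did not overlap. Leaving out IgG replicate 1 gave 0.27, and leaving out IgG replicate 2 gave 0.63. An exact two-sided permutation test gave p = 0.3333, the smallest p that 2 libraries against 2 allow. Lengths of the longest coding transcripts in place of all exon bases gave ratios of 0.591 and 0.793 with IgG and 0.898 and 0.994 with anti-SIGLEC15, a higher level with the same order. With H2-K1 and H2-D1 alone the ratio was 0.284 and 0.335 with IgG and 0.364 and 0.404 with anti-SIGLEC15. By gene, 5 of 9 heavy chains were higher over B2m in both anti-SIGLEC15 libraries (H2-K1, H2-Q4, H2-Q6, H2-Q7 and H2-M3). H2-D1, H2-T22, H2-T23 and Cd1d1 overlapped. How many of all genes separate over B2m was not tested, so 5 of 9 has no background here. H2-M3 was nearly tied, with replicate 2 of IgG at 0.4830% of B2m and replicate 1 of anti-SIGLEC15 at 0.4834%. That gap is under the counting error of 512 and 477 H2-M3 reads. H2-Q6 over B2m went from 3.64% and 7.95% to 10.5% and 12.4%, and H2-Q4 over B2m from 2.93% and 3.21% to 4.52% and 5.28%. The ratio of H2-Q6 to H2-Q7 was 2.54 and 2.57 with IgG and 2.87 and 3.32 with anti-SIGLEC15. By longest coding transcript it was 0.907 and 0.917 with IgG and 1.03 and 1.19 with anti-SIGLEC15, so which gene is higher depends on the length used.

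**Figure D3:**
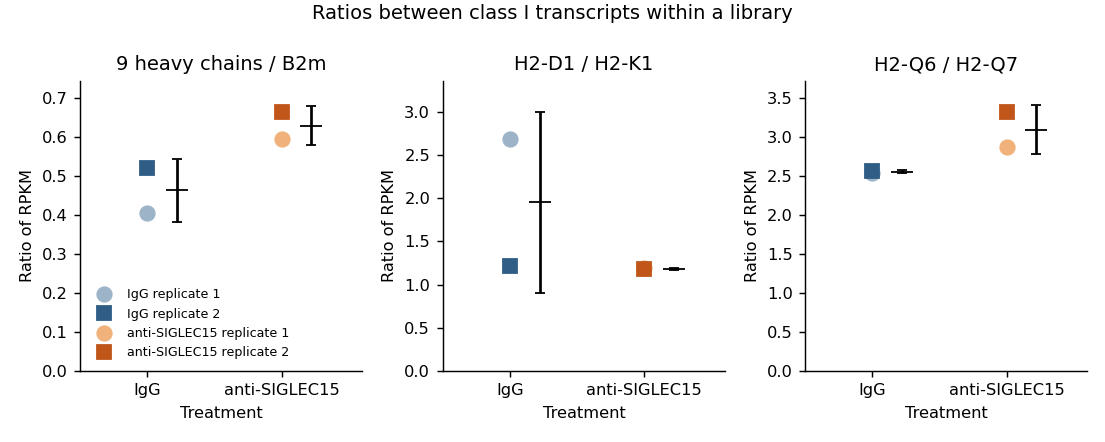
Ratio of RPKM (vertical) within each library, by treatment (horizontal), for the 9 heavy chains over B2m, H2-D1 over H2-K1 and H2-Q6 over H2-Q7; points are libraries, and the bar beside them is the mean with its SD (n = 2). Heavy chains over B2m range from 0.406 to 0.521 with IgG and from 0.595 to 0.665 with anti-SIGLEC15, while H2-D1 over H2-K1 departs only in IgG replicate 1, at 2.69.

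The treatments were compared over all 4 libraries with limma on log2(RPKM + 1). No class I gene was called, and limma called 0% of the 12484 genes after Benjamini-Hochberg adjustment at 0.05, and 146 genes had an unadjusted limma p under 0.05. On recovered reads, limma-voom called 0 of 15061 genes, and 90 of them had an unadjusted p under 0.05. The log2 fold changes of anti-SIGLEC15 over IgG were 1.28 for H2-Q6 (SE 0.58), 1.00 for H2-Q7 (SE 0.57), 0.90 for H2-K1 (SE 0.53) and 0.87 for H2-Q4 (SE 0.32). They were 0.58 for H2-M3 (SE 0.42), 0.39 for Cd1d1 (SE 0.38), 0.30 for H2-T22 (SE 0.34), 0.29 for H2-D1 (SE 0.24), 0.21 for H2-T23 (SE 0.27) and 0.20 for B2m (SE 0.24). The limma adjusted p was 0.9999 for each of the 10 genes, and only H2-Q4 had an unadjusted limma p (0.0413) below 0.05. Their median was 0.48, and that of all genes tested was 0.02. The medians of the T cell identity list, at 0.69, and of the pan-leukocyte list, at 0.55, were above that of the class I genes, and that of the hepatocyte list was -0.44.

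Both anti-SIGLEC15 libraries were above both IgG libraries in 4 of 10 class I genes, H2-K1, H2-Q4, H2-Q6 and H2-Q7, against 12.1% of all genes tested. None of the 10 was below both, against 6.02%. Against IgG replicate 2 alone the same 4 genes were higher in both anti-SIGLEC15 libraries, where 26% of all genes were, and B2m was lower, where 25.9% were. Without IgG replicate 1 the log2 fold change of H2-Q4 was 0.53, of H2-Q6 0.44, of H2-Q7 0.18 and of H2-K1 0.14, and those of B2m, H2-T22 and Cd1d1 turned negative, at -0.08, -0.06 and -0.04. Without IgG replicate 2 they were 2.12 for H2-Q6, 1.82 for H2-Q7, 1.67 for H2-K1 and 1.21 for H2-Q4. That fit sets IgG replicate 1, the library that stood apart, alone against the anti-SIGLEC15 libraries. It cannot separate treatment from that 1 pool.

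Scaling decides the direction of part of the set. With libraries scaled to equal T cell identity lists, the median log2 fold change of all genes moved to -0.60, and to -0.45 with pan-leukocyte lists. H2-D1, H2-T22, H2-T23, B2m and Cd1d1 then had negative fold changes under both scalings, and H2-M3 under the T cell scaling. H2-Q6, H2-K1, H2-Q7 and H2-Q4 stayed positive under both. Relative to the median of all genes under the T cell scaling, H2-Q6 was at 1.16, H2-K1 at 0.78, H2-Q4 at 0.74, H2-D1 at 0.17 and B2m at 0.07. Of the genes whose treatments did not overlap, 66.8% were higher with anti-SIGLEC15 as deposited, 53.1% with median-of-ratios scaling, 37.8% with pan-leukocyte scaling and 16.2% with T cell scaling. H2-Q6 was the only one of the 10 that was higher in both anti-SIGLEC15 libraries under each of the 8 settings that kept all libraries and no replicate block. H2-K1 and H2-Q7 were under 7 of 8, and H2-Q4 under 6 of 8. Of these settings only the scalings can reorder the libraries within a gene, so the others repeat the main result. H2-K1 and H2-Q7 overlapped under median-of-ratios scaling, and H2-Q4 under T cell and pan-leukocyte scaling.

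**Figure D4:**
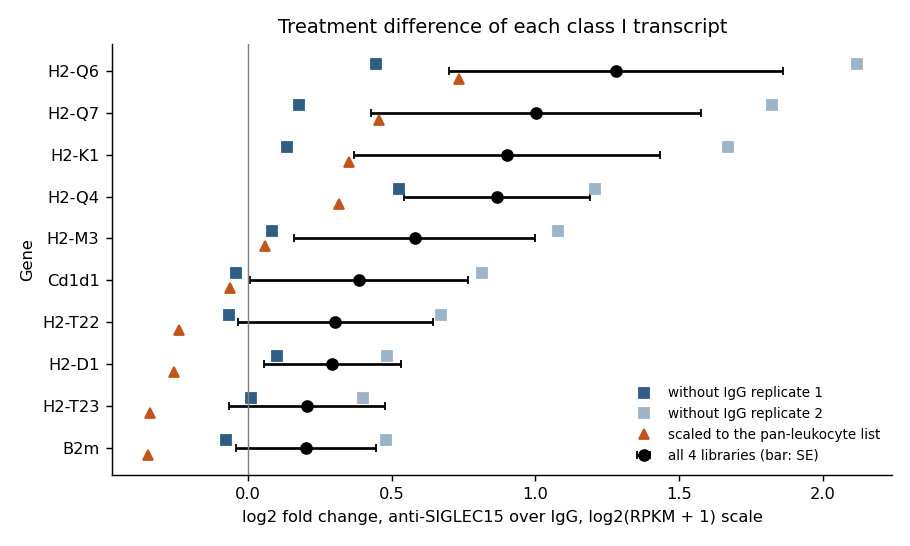
log2 fold change of anti-SIGLEC15 over IgG on the log2(RPKM + 1) scale (horizontal) for each class I gene (vertical); black points are the fit to all 4 libraries with the SE as bar, squares leave out an IgG library and triangles scale to the pan-leukocyte list. Leaving out IgG replicate 1 brings H2-K1 to 0.14 and H2-Q6 to 0.44, and the triangles of H2-D1, H2-T22, H2-T23, B2m and Cd1d1 lie under 0.

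The other genes of the pathway are given by list, to be read against the 12.1% of all genes that were higher and the 6.02% that were lower in both anti-SIGLEC15 libraries. Other class I and class I-like chains were listed separately, 27 in number, of which 22 were found and 10 tested. In 3 of these 10 (H2-Q10, H2-T10 and H2-K2) both anti-SIGLEC15 libraries were higher, and in 0 lower. H2-K2, a pseudogene near H2-K1, measured 14.1 and 14.4 RPKM with IgG and 26.0 and 26.3 RPKM with anti-SIGLEC15, with close replicates in both treatments. H2-T10, the near copy of H2-T22, measured 8.91 and 25.1 RPKM with IgG and 26.3 and 27.1 RPKM with anti-SIGLEC15. H2-Q5 measured 34.9 and 118 RPKM with IgG and 114 and 135 RPKM with anti-SIGLEC15, an overlap. The median log2 fold change over the 10 was 0.02, the same as over all genes, but it joins genes that differed in direction. The fold change was 0.94 for H2-Q5, 0.83 for H2-K2, 0.79 for H2-T10, 0.54 for H2-Q10, 0.23 for H2-T24 and -0.63 for H2-Q1. For the class I-like genes it was -0.19 for Mr1, -0.53 for Procr, -0.54 for Fcgrt and -0.73 for Azgp1.

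Peptides are cut by the immunoproteasome, pumped by the TAP transporter and loaded with the help of tapasin. Of 13 genes of this supply, 6 were higher in both anti-SIGLEC15 libraries (Psmb8, Psmb9, Psmb10, Psme1, Tap2 and Tapbpl) and 1 was lower (Erap1), none was called by limma, and their median log2 fold change was 0.30. Psmb8, an immunoproteasome subunit, measured 33.3 and 53.5 RPKM with IgG and 56.3 and 53.7 RPKM with anti-SIGLEC15. Psmb9, another, measured 34.6 and 53.9 RPKM with IgG and 56.7 and 58.5 RPKM with anti-SIGLEC15. In both, IgG replicate 2 lay close under the anti-SIGLEC15 libraries, as it did for H2-K1. Tap1, a subunit of the peptide transporter, measured 47.2 and 66.6 RPKM with IgG and 62.1 and 72.5 RPKM with anti-SIGLEC15, and its partner Tap2 11.3 and 23.6 RPKM and 24.1 and 23.6 RPKM. Tapbp, which encodes tapasin, measured 22.5 and 27.8 RPKM with IgG and 27.5 and 29.1 RPKM with anti-SIGLEC15. Erap1, the trimming peptidase, measured 14.5 and 13.3 RPKM with IgG and 13.3 and 9.64 RPKM with anti-SIGLEC15. The remaining 3 of the higher genes were also lowest in IgG replicate 1. Psme1, a proteasome activator subunit, went from 85.1 RPKM there to 122 RPKM in IgG replicate 2 and 124 to 127 RPKM with anti-SIGLEC15. Psmb10, the third immunoproteasome subunit, measured 49.1 and 57.2 RPKM with IgG and 65.4 and 65.9 RPKM with anti-SIGLEC15. Tapbpl, which encodes a tapasin relative that edits peptides, measured 18.2 and 28.1 RPKM with IgG and 30.6 and 29.0 RPKM with anti-SIGLEC15. Calr, the chaperone calreticulin, was highest in IgG replicate 1, at 493 RPKM against 234 to 345 RPKM elsewhere.

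Of 13 genes of transcriptional control reported here, 3 were higher in both anti-SIGLEC15 libraries (Nlrc5, Rela and Rfxank), 0 were lower in both and none was called by limma, with a median log2 fold change of 0.15. Nlrc5, the transactivator of class I genes, measured 9.71 and 27.3 RPKM with IgG and 30.9 and 30.4 RPKM with anti-SIGLEC15, a profile with the same low IgG replicate 1 as H2-K1. Irf1, an interferon-induced activator, went the other way from the class I genes within IgG, at 89.9 and 33.8 RPKM, against 56.3 and 55.9 RPKM with anti-SIGLEC15. Rela, an NF-kappa B subunit, measured 33.7 and 31.9 RPKM with IgG and 34.4 and 40.0 RPKM with anti-SIGLEC15, and Rfxank, an RFX subunit, 1.70 and 2.32 RPKM and 3.405 and 2.38 RPKM. Among 7 interferon receptor and Jak kinase genes, 1 was higher in both anti-SIGLEC15 libraries (Jak2), 0 were lower and none was called, and their median was 0.44. Jak2, a receptor-bound kinase, measured 19.35 and 20.02 RPKM with IgG and 20.54 and 26.06 RPKM with anti-SIGLEC15. Ifngr1, a chain of the interferon gamma receptor, measured 89.8 and 161 RPKM with IgG and 160 and 217 RPKM with anti-SIGLEC15, and Ifngr2, the other chain, 10.34 and 1.63 RPKM and 4.28 and 2.27 RPKM.

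Receptors that bind class I molecules numbered 19, of which 11 were tested, 2 were higher in both anti-SIGLEC15 libraries (Klra7 and Klrc2), 0 were lower and none was called. Klra7, an inhibitory Ly49 receptor, measured 0.493 and 1.43 RPKM with IgG and 2.62 and 32.5 RPKM with anti-SIGLEC15, so its mean rests on 1 library. Klrd1 and Klrc1 encode CD94 and NKG2A, the receptor for the H2-T23 product. Klrd1 measured 78.3 and 269 RPKM with IgG and 192 and 239 RPKM with anti-SIGLEC15, and Klrc1 80.4 and 238 RPKM and 172 and 243 RPKM. The treatments overlapped for both, with IgG replicate 1 lowest, as for H2-T23, but by a larger factor.

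The genes most like 4 of the class I genes across libraries were sought among 2076 other genes with a mean of at least 20 RPKM, by Euclidean distance between centred log2(RPKM + 1) values over the 4 libraries. For H2-K1 they were Cd2 (distance 0.0394), Gpr171, Epsti1, Gpr183 and Ppm1j (0.150). Cd2, a T cell adhesion receptor that is also in the T cell identity list, measured 71.8 and 206 RPKM with IgG and 205 and 253 RPKM with anti-SIGLEC15. For H2-Q6 they were Fasl (0.235), Cd5, Gpr18, Ctsw and Epsti1 (0.296), so that Epsti1 was near both. For B2m they were Lamtor4 (0.0229), Rps7, Rnf7, Ap2s1 and Cab39 (0.0575), none of them a gene of the T cell list. For Cd1d1 they were Nsmaf (0.0430), Csk, Cd2bp2, Ubac2 and Dcaf15 (0.0892). With 4 libraries, 1 of which stood apart, these distances describe the libraries, and IgG replicate 1 was the lowest library for each of the neighbours named.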

How the data were processed

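Per the labels' protocols, RNA was enriched with oligo-coated beads before sequencing. The deposited values are RPKM as computed by the authors, a unit deduced here because the values multiplied by GENCODE M21 exon length were whole multiples of a step for 98.92% to 98.97% of genes with under 1000 reads (tolerance 0.02). Builds GRCm38 and mm10 are named in the submitters' processing notes, while aligner, counter, strand setting and annotation release were not given in the sources used here. RPKM is relative to the library, so a change in other transcripts shifts every gene.

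Libraries were grouped by title. The comparison used limma (trend, robust) on log2(RPKM + 1), over every gene reaching 1 RPKM in 2 or more libraries. Calls were made at 0.05 after Benjamini-Hochberg adjustment. This scale understates changes of low genes. Whole reads were recovered for limma-voom (at least 10 reads). The members, lists and rules were chosen with earlier results of these data known. Named were all 10 members, genes of the supply and control lists whose treatments did not overlap, Tap1, Tapbp, Psmb8, Psmb9, Nlrc5 and Irf1, and the 5 nearest patterns. A further gene of the control list is not reported here. The other genes were named after their values were seen. Alternatives were a pseudocount of 0.1, no filter, a 5 RPKM filter, 3 scalings, a replicate block and leaving out each library. Shared windows came from GENCODE M21 transcripts. Of 9 promoter windows, 3 overlapping annotated untranslated regions are not shown. Software was Python 3.11.15 (scipy 1.17.1, numpy 2.4.6, pandas 2.3.3) and R 4.3.3 with limma 3.58.1.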

Additional observations from a re-analysis of the deposited data

How the results depend on the processing

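Median-of-ratios scaling left 2 class I genes higher in both anti-SIGLEC15 libraries (H2-Q4 and H2-Q6) in place of 4. T cell identity scaling left 3 higher and 1 lower (B2m), with a median of -0.16 and log2 fold changes of -0.43 for H2-D1, -0.41 for H2-T22, -0.52 for H2-T23, -0.11 for H2-M3, -0.53 for B2m and -0.21 for Cd1d1. Pan-leukocyte scaling gave a median of -0.0014, and -0.26 for H2-D1, -0.24 for H2-T22, -0.34 for H2-T23, -0.35 for B2m and -0.064 for Cd1d1. The shares of all genes whose treatments were apart, upward and downward, were 12.1% and 6.02% as deposited, 11.7% and 10.34% with median-of-ratios, 2.77% and 14.33% with T cell and 4.61% and 7.59% with pan-leukocyte scaling. Leaving out 1 library gave 0 to 2129 genes called by limma (125 without IgG replicate 1, 2129 without IgG replicate 2), 4 to 10 class I genes higher, 0 to 1 lower and a median between 0.093 and 0.95. The log2 fold changes ranged from -0.065 to 0.67 for H2-T22, -0.076 to 0.48 for B2m and -0.041 to 0.82 for Cd1d1. The lone library left in a group was assumed to vary like the others, so these calls cannot separate treatment from that 1 pool. With a library left out, more genes count as higher or lower. All 10 class I genes were higher without IgG replicate 2, where 45.37% of all genes were higher and 36.17% lower. These shares were 26.04% and 25.91% without IgG replicate 1. They were 19.19% and 37.87% without anti-SIGLEC15 replicate 1, and 36.85% and 8.5% without anti-SIGLEC15 replicate 2. With the replicate block, 8 class I genes were higher within both numbers and 0 genes were called, with 303 at an unadjusted p under 0.05. This rule is looser than no overlap, and by it 19.22% of all genes were higher and 24.88% lower, against 12.1% and 6.02% as deposited. The within-group differences correlated at 0.3298, and with 2 pairs the numbers do not establish a pairing. The heavy chain to B2m difference stayed positive under each alternative run, from 0.27 without IgG replicate 1 to 0.63 without IgG replicate 2. It was 0.31 for H2-K1 and H2-D1 alone and 0.47 by longest coding transcript. Its sign was fixed when a library was left out, because the groups did not overlap. A replicate block cannot change this difference and gave the same 0.45. For the log2 fold changes of the 10 genes, 14 of the alternative values changed sign and the others kept direction. The sign changes came with T cell or pan-leukocyte scaling or without IgG replicate 1. Neither a filter nor the replicate block can change a gene's own fold change, so direction under these was fixed in advance. The cause of these changes was not tested.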
